A study of Homo sapiens with 6 samples.

Results

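Genes of transforming growth factor beta (TGF-beta), activin and bone morphogenetic protein (BMP) signalling were examined in A375, an established human melanoma cell line with an activated BRAF kinase. The members were 43 gene symbols, of which 41 were listed in the deposited table and all 41 passed the filter on low values; INHBB, an activin subunit, and GREM1, an extracellular BMP antagonist, were not listed. The whole table held 18539 genes, of which 17194 were tested. RNA was sequenced from shMMP9 cells (3 libraries), which carried a short hairpin RNA against matrix metalloproteinase 9 (MMP9, a secreted gelatinase), and from shControl cells (3 libraries), which carried a control hairpin. In both groups the hairpin had been delivered by lentivirus in the pLKO.1 vector and infected cells had been selected with puromycin at 2 ug/ml. The series asks what depletion of MMP9 does in melanoma cells. One hairpin against MMP9 was used, so an effect of that hairpin on other transcripts cannot be told apart from one of lower MMP9. Whether the replicates were grown as separate cultures is not stated by the labels. The p-values therefore rest on the spread among these libraries, which may be technical.

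TGF-beta, activins and BMPs are secreted dimers that bring together type I and type II serine/threonine kinase receptors. TGF-beta and activin receptors mainly phosphorylate SMAD2 and SMAD3, BMP receptors mainly phosphorylate SMAD1, SMAD5 and SMAD9, and either set enters the nucleus with the shared partner SMAD4. The ID genes are direct BMP targets that encode inhibitors of basic helix-loop-helix factors, while SMAD6, SMAD7, BAMBI and the SMURF ubiquitin ligases damp the pathway. TGF-beta is secreted in a latent form bound to LTBP proteins of the matrix, and MMP9 is among the enzymes known to release it. TGF-beta restrains the growth of normal melanocytes, a brake that melanoma cells often lose.

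The target of the hairpin is shown because every comparison rests on it, with all letters in capitals since the whole run is the target.
MMP9 hairpin target: CATTCAGGGAGACGCCCATTT
It lies at chr20:46010992-46011012 on the plus strand of GRCh38, in coding sequence of the MMP9 gene (ENSG00000100985.7, exon 4 of 13), and of 206694 annotated transcripts 1 held it in full. MMP9 had scaled counts of 16.2, 14.6 and 17.1 in shMMP9 cells, against 26.1, 24.3 and 28.7 in shControl cells. Its shMMP9 mean was 0.605 times its shControl mean, so the transcript was reduced but not lost. The groups did not overlap, and MMP9 was lower in shMMP9 cells by the test used throughout (log2 change -0.69, SE 0.0847, adjusted p = 1.25e-05, limma with Benjamini-Hochberg adjustment over all genes tested). A scaled count is a read count brought by the depositors to a common upper quartile, and every log2 change is shMMP9 minus shControl on log2(scaled count + 1), which understates the change of weakly expressed genes.

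Promoter windows of 4 members are shown, from 250 bases before to 50 after the RefSeq transcription start (GRCh38.p14, plus strand). ID1 and BAMBI were chosen as BMP targets that were higher, SMAD6 as a BMP target that holds a rare SMAD palindrome, and TGFB2 as the member with the largest fall. Capitals mark matches to any of 3 motifs searched on both strands: GGCGCC, a GC-rich element bound by SMADs, GTCTAGAC, the SMAD palindrome, and CAGACA, a SMAD box.
ID1: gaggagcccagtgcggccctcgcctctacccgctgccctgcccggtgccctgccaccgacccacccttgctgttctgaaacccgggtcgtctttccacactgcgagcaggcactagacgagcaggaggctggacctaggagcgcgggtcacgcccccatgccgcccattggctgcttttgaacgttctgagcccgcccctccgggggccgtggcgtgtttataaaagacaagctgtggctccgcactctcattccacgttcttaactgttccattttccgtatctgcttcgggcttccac
BAMBI: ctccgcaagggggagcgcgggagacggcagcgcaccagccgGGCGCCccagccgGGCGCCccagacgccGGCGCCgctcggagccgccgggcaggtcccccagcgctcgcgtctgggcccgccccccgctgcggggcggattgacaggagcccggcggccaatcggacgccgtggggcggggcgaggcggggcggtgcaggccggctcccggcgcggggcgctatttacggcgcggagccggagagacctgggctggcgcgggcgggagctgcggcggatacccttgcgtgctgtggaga
SMAD6: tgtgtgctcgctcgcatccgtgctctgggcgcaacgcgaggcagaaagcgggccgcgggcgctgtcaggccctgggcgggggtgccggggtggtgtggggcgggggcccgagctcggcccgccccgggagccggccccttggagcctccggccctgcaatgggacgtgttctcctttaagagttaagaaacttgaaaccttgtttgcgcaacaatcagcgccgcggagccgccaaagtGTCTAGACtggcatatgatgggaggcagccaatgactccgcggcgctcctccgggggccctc
TGFB2: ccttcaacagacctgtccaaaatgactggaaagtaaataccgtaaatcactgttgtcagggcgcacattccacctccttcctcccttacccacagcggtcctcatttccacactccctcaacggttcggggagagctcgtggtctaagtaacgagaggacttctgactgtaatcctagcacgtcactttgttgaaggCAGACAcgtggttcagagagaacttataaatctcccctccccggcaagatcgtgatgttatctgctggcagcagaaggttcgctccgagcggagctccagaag
The windows lie at chr20:31605039-31605338 for ID1, chr10:28677271-28677570 for BAMBI, chr15:66701986-66702285 for SMAD6 and chr1:218345086-218345385 for TGFB2. BAMBI held 3 copies of GGCGCC, at -209, -196 and -181 from the start, SMAD6 held 1 GTCTAGAC at -12, and TGFB2 held 1 CAGACA at -53. The ID1 window held none of the motifs, nor did those of ID2, ID3 and ID4. Sequence outside the windows was not searched, so motifs farther from the start would be missed. GTCTAGAC and CAGACA both contain the bases AGAC, but no printed window held more than 1 kind of motif. Of 34943 RefSeq windows of the same length, 19.2% held GGCGCC, 0.203% held GTCTAGAC and 16.9% held CAGACA. RefSeq windows were matched for 39 of the 43 members, with 69 windows in all, since a gene can have several starts. Of these member windows 18 (26.1%) held GGCGCC, 1 (1.45%) held GTCTAGAC and 15 (21.7%) held CAGACA. These letter matches describe the windows and were not tested as binding sites.

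The libraries held an estimated 21854115 to 25895675 reads in the shMMP9 group and 24319958 to 28005535 in the shControl group. SOX10 and MITF, regulators of the melanocyte lineage, were present, at 785 ± 40.6 and 27.7 ± 0.876 scaled counts in shMMP9 cells and 378 ± 18.4 and 35.5 ± 2.48 in shControl cells (SD, n = 3). The pigment gene PMEL was near 2 scaled counts in both groups, and TYR and DCT were not listed. The fibroblast, endothelial and leukocyte lists each held markers that went either way. Summed fibroblast markers ran from 27.0 to 29.9 scaled counts in shMMP9 libraries, against 46.1 to 52.2 in shControl libraries, with 4 of 5 tested markers lower and PDGFRA higher (log2 change 1.05). Summed endothelial markers ran from 22.5 to 25.9 in shMMP9 libraries, against 55.9 to 64.9 in shControl libraries, but 2 of 6 tested markers were lower and 2 higher. That sum followed TIE1 (4.56 ± 0.617 in shMMP9 cells and 49.9 ± 3.41 in shControl cells), while KDR was higher (16.1 ± 0.537 in shMMP9 cells and 6.44 ± 0.414 in shControl cells). Summed leukocyte markers (PTPRC, CD3E and TYROBP not listed) ran from 8.64 to 9.94 in shMMP9 libraries, against 6.88 to 7.47 in shControl libraries, with LYZ higher (log2 change 1.29) and ITGB2 lower (1.78 ± 0.53 in shMMP9 cells and 4.50 ± 0.0707 in shControl cells). Summed keratinocyte markers (KRT1, TP63, DSG3 and IVL not listed) ran from 127 to 136 in shMMP9 libraries, against 70.0 to 81.6 in shControl libraries, and both tested markers, KRT14 and KRT10, were higher. KRT5 went the other way but was too weak to be tested, at 1, 1 and 1 estimated reads in shMMP9 libraries, against 8, 15 and 9. Mitochondrial transcripts took 0.62 to 0.71% of reads in shMMP9 libraries and 1.64 to 1.79% in shControl libraries. The part of these shifts in the results below was not tested, and in bulk RNA fewer cells of a type and less RNA per cell cannot be told apart. Replicate 1 of shControl stood apart from the other shControl libraries, with a chi-square per gene of 14.2 and 9.80 against them, where the other pairs within groups ran from 2.57 to 4.92.

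Of the 41 members tested, 19 were higher and 12 lower in shMMP9 cells, and 10 did not pass. Much of the transcriptome differed as well: 25% of all tested genes were higher and 32.5% lower by the same rule. The median log2 change of the members was 0.07, beside -0.05 over all tested genes, and the median absolute change was 0.41, beside 0.28. Members were more strongly expressed than the usual gene, with a median of 32.8 scaled counts beside 16.2. Among genes with a mean of at least 5 scaled counts, 69.7% of 33 members and 64.8% of all genes passed. The 31 members that passed were also those whose 3 shMMP9 libraries did not overlap the 3 shControl libraries, where 62.7% of all tested genes did not overlap. A log2 change of at least 1 in either direction was seen in 9 members, where 8.17% of all tested genes reached it: ID4, BAMBI, ID2, BMP6 and ID1 were higher, and TGFB2, LTBP2, SMAD3 and SMURF2 were lower. Without shControl replicate 1, 18 members were higher and 15 lower.

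**Figure D1:**
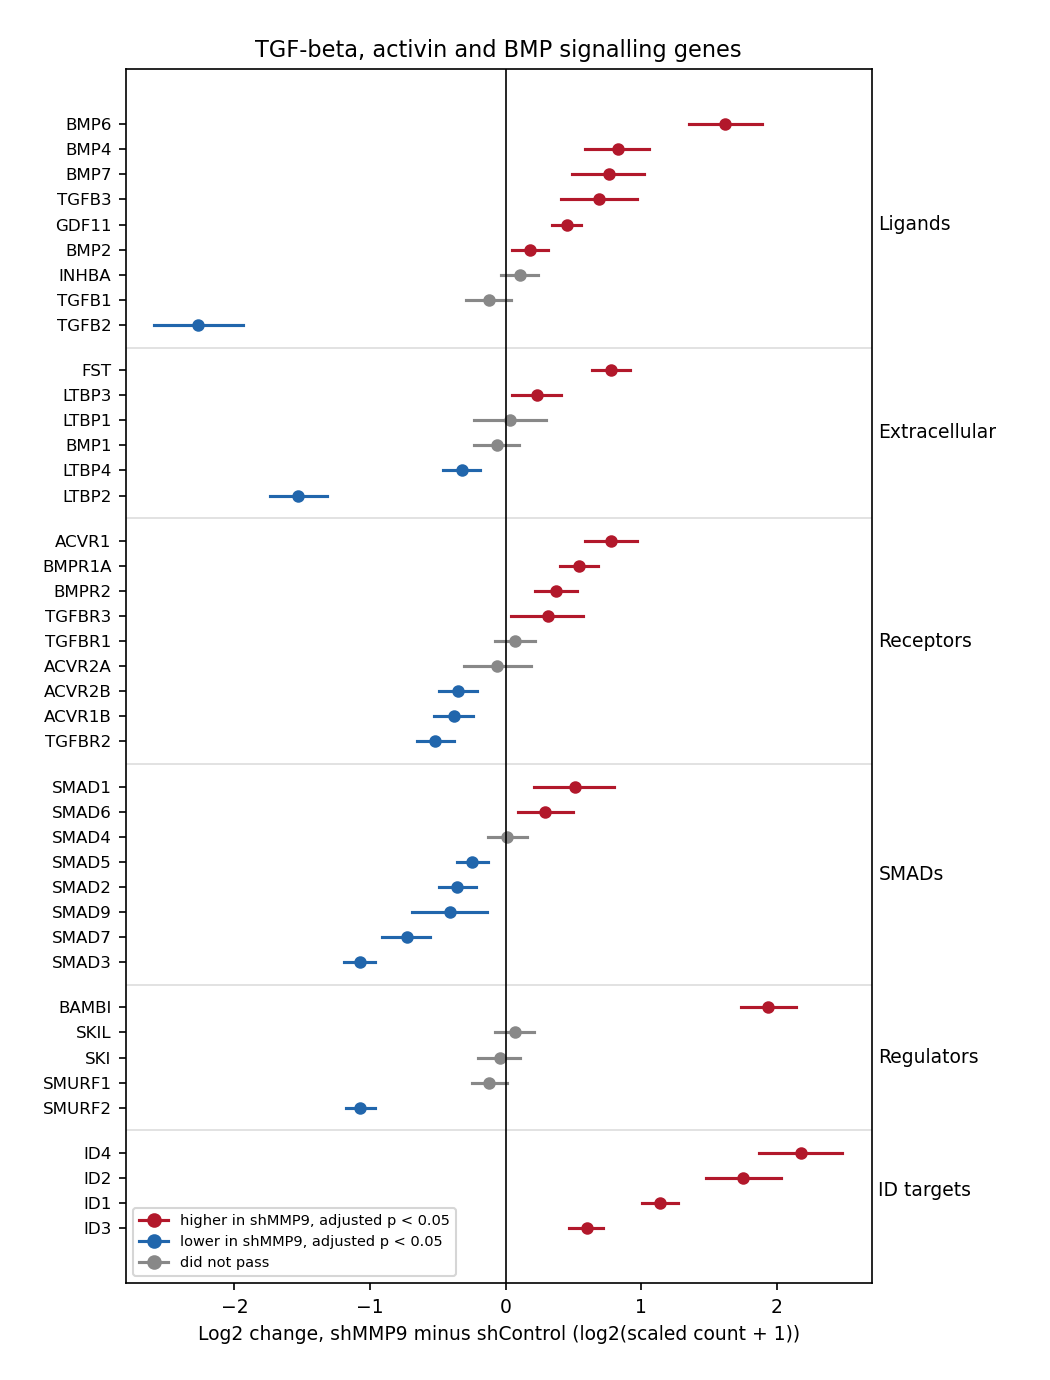
Log2 change of each member, shMMP9 minus shControl on log2(scaled count + 1), with its 95% confidence interval, grouped by role; colours give the direction for adjusted p under 0.05 and grey marks members that did not pass. All 4 ID genes lie to the right of 0 and 5 of 8 SMAD genes are called lower, while ligands and receptors fall on either side. Across all tested genes, 25% were called higher and 32.5% lower.

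Among the ligands, BMPs were higher and TGFB2 was lower. Of 9 ligand genes tested, 6 were higher (BMP2, BMP4, BMP6, BMP7, TGFB3 and GDF11), TGFB2 was lower, and INHBA and TGFB1 did not pass. Beside this, 25% of all tested genes were higher and 32.5% lower. With a minimum mean of 5 scaled counts, 3 ligands were higher and 0 lower, since the weaker ones were no longer tested. BMP6, a BMP of the iron-regulating and osteogenic group, lies at chr6:7726797-7881422 on the plus strand and had 7.92, 7.34 and 8.24 scaled counts in shMMP9 cells, against 1.64, 2.27 and 1.75 in shControl cells. Every shMMP9 library stood well above every shControl library, and the log2 change was 1.62 (SE 0.125, adjusted p = 1.41e-07, limma). TGFB2, the TGF-beta isoform tied to mesenchymal and neural crest development, lies at chr1:218346235-218444619 on the plus strand and had 1.07, 0.476 and 0.751 scaled counts in shMMP9 cells, against 7.87, 6.35 and 8.17 in shControl cells. The shMMP9 values rest on 32, 12 and 20 estimated reads, against 221, 195 and 219 in shControl libraries. TGFB2 was lower by the widest margin of any member, with a log2 change of -2.27 (SE 0.15, adjusted p = 3.08e-08, limma). Of the bases of its exons 26.6% overlap the listed transcript TGFB2-OT1, so reads of the pair may be mixed.

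The remaining ligands changed by less. BMP4, a morphogen of the neural crest and epidermis, had 9.17, 9.75 and 9.16 scaled counts in shMMP9 cells, against 4.24, 5.20 and 5.12 in shControl cells (log2 change 0.83, adjusted p = 2.44e-05, limma). BMP7, which acts in kidney and bone, had 7.42, 5.55 and 6.10 in shMMP9 cells, against 3.24, 3.31 and 3.43 in shControl cells (log2 change 0.76, adjusted p = 0.000159, limma). Neither gene overlapped between groups, and BMP7 varied more among shMMP9 than among shControl libraries. GDF11, an activin-like ligand, had 104, 109 and 101 scaled counts in shMMP9 cells, against 73.7, 78.4 and 77.0 in shControl cells (log2 change 0.45, adjusted p = 5.9e-06, limma). TGFB3 had a log2 change of 0.69 (adjusted p = 0.000442, limma) at levels of 2.24 ± 0.201 in shMMP9 cells and 1.01 ± 0.17 in shControl cells. BMP2, a relative of BMP4, had the smallest passing change of the ligands, 0.18 (adjusted p = 0.0207, limma), and no longer passed without shMMP9 replicate 3 (0.15, adjusted p = 0.0828). The exons of GDF11 overlap those of SARNP on the opposite strand over 4.5% of their bases, and the strand setting of the counting is not given in the sources used here.

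TGFB1 and INHBA, the ligands most strongly expressed per kilobase of exon, did not pass. TGFB1 had 118, 112 and 132 scaled counts in shMMP9 cells, against 116, 142 and 138 in shControl cells (log2 change -0.12, 95% confidence interval -0.29 to 0.04, adjusted p = 0.188, limma). INHBA, whose product forms activin A, had 432, 446 and 416 in shMMP9 cells, against 419, 363 and 422 in shControl cells (0.11, -0.03 to 0.24, adjusted p = 0.159, limma). Both calls depended on shControl replicate 1: without it TGFB1 was lower, with a change of -0.22 (adjusted p = 0.00573), and INHBA higher, with a change of 0.14 (adjusted p = 0.0422). INHBA was also called higher under other scalings, at 0.17 with median-of-ratios and 0.16 with total-read scaling.

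Per kilobase of exon, the ligands ran in shMMP9 cells in the order INHBA (51.9 ± 1.83 scaled counts per kb), TGFB1 (37.3 ± 3.25), GDF11 (12.1 ± 0.462), BMP2 (9.27 ± 0.335), BMP4 (3.04 ± 0.111), BMP6 (2.82 ± 0.165), BMP7 (1.17 ± 0.177), TGFB3 (0.457 ± 0.0408) and TGFB2 (0.149 ± 0.0582). No neighbours in that order overlapped between libraries, although BMP4 and BMP6 nearly touched. In shControl cells TGFB2 stood sixth, at 1.45 ± 0.189 scaled counts per kb, and its libraries overlapped those of BMP4 (1.57 ± 0.172). INHBA (48.3 ± 4.03) and TGFB1 (40.7 ± 4.38) overlapped in shControl cells, as did BMP6 (0.680 ± 0.122) and BMP7 (0.615 ± 0.0179). Exon length counts all annotated exons of a gene, which a cell need not use, so the order between genes is approximate.

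**Figure D2:**
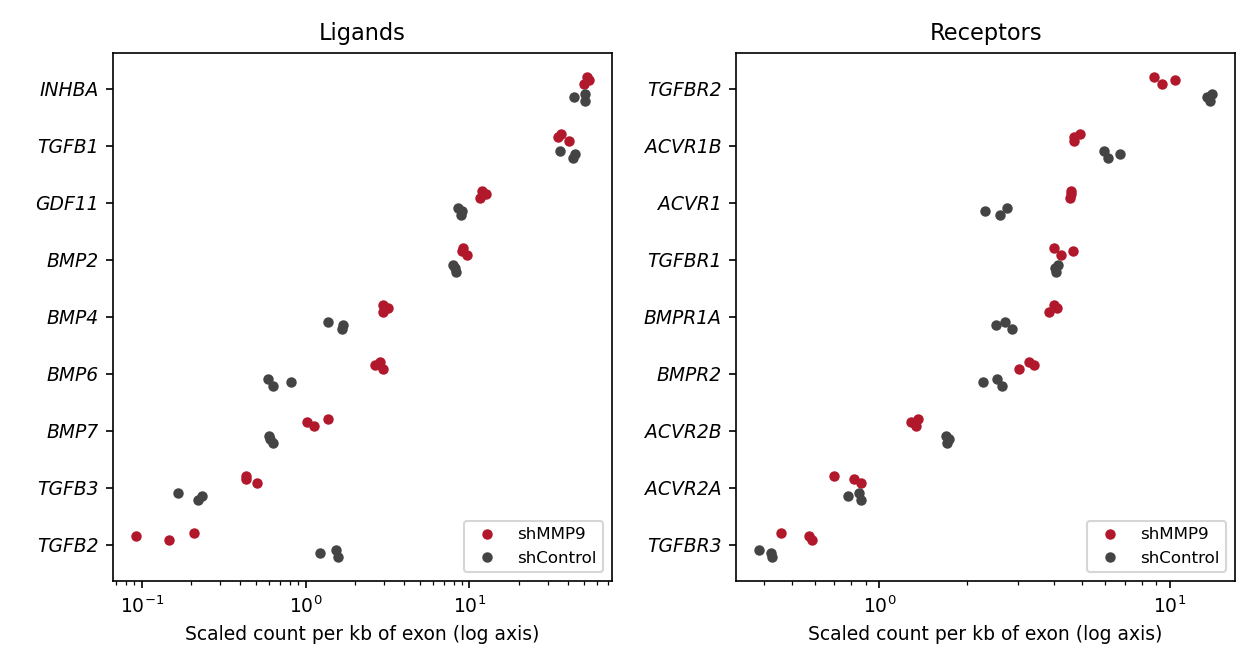
Level of each ligand and receptor gene in each library, in scaled counts per kb of exon on a log axis, with 3 points per group. TGFB2 drops to 0.149 in shMMP9 cells, against 1.45 in shControl cells, below every other ligand, while BMP4, BMP6 and BMP7 sit above their shControl values.

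Of 6 extracellular modulators tested, 2 were higher, 2 lower and 2 did not pass, where 25% of all tested genes were higher and 32.5% lower. LTBP2, a matrix protein of the latent TGF-beta binding family that does not itself carry latent TGF-beta, lies at chr14:74498170-74612378 on the minus strand. It had 5.20, 4.88 and 5.98 scaled counts in shMMP9 cells, against 16.7, 17.3 and 17.9 in shControl cells, with no overlap (log2 change -1.53, SE 0.0986, adjusted p = 2.43e-08, limma). FST, which encodes the secreted activin antagonist follistatin, had 47.9, 48.6 and 52.3 in shMMP9 cells, against 27.0, 30.8 and 27.7 in shControl cells, also without overlap (0.78, adjusted p = 3.6e-07, limma). The LTBP family did not move as one. LTBP4, which tethers latent TGF-beta to elastic fibres, had 103, 96.8 and 114 scaled counts in shMMP9 cells, against 123, 138 and 132 in shControl cells, and was lower (-0.32, adjusted p = 0.000719, limma). LTBP3, another carrier, had 362, 358 and 423 in shMMP9 cells, against 281, 353 and 339 in shControl cells, a change of 0.23 (adjusted p = 0.0277, limma) that did not pass without shControl replicate 1 (0.13, adjusted p = 0.0645) or without shMMP9 replicate 3 (0.16, adjusted p = 0.141), nor without the variance trend (adjusted p = 0.107). LTBP1 had a log2 change of 0.03 and did not pass. BMP1, a protease that processes collagens and LTBP1, had a change of -0.06 and did not pass either.

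The receptors went both ways, and no change among these members reached 1 on the log2 scale. Of 9 receptor genes, ACVR1, BMPR1A, BMPR2 and TGFBR3 were higher, TGFBR2, ACVR1B and ACVR2B were lower, and TGFBR1 and ACVR2A did not pass. Across all tested genes 25% were higher and 32.5% lower. ACVR1 (ALK2), a BMP type I receptor, had 18.2, 18.2 and 18.1 scaled counts in shMMP9 cells, against 11.0, 9.23 and 10.4 in shControl cells (log2 change 0.78, adjusted p = 5.19e-06, limma). BMPR1A, the type I receptor for BMP2 and BMP4, had 45.4, 46.6 and 43.7 in shMMP9 cells, against 31.0, 28.8 and 32.7 in shControl cells (0.54, adjusted p = 8.51e-06, limma). The shMMP9 libraries of both genes lay above all shControl libraries, as did those of BMPR2, the main BMP type II receptor (38.6 ± 2.28 in shMMP9 cells and 29.6 ± 2.31 in shControl cells, 0.37, adjusted p = 0.000606, limma).

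TGFBR2, which binds TGF-beta ligand and activates TGFBR1, had 41.4, 49.1 and 44.1 scaled counts in shMMP9 cells, against 65.8, 63.1 and 64.5 in shControl cells (-0.52, adjusted p = 1.36e-05, limma). ACVR1B (ALK4), the activin type I receptor, had 27.9, 26.6 and 26.6 in shMMP9 cells, against 33.7, 38.3 and 34.8 in shControl cells (-0.38, adjusted p = 0.000269, limma). ACVR2B, an activin type II receptor, had 21.4, 20.3 and 21.1 in shMMP9 cells, against 26.8, 27.4 and 27.0 in shControl cells (-0.35, adjusted p = 0.000399, limma). None of the 3 overlapped between groups, as held for 62.7% of all tested genes. Their partners TGFBR1 (log2 change 0.07, 95% confidence interval -0.08 to 0.22) and ACVR2A (-0.06, -0.31 to 0.19) did not pass. TGFBR3 (betaglycan), a coreceptor that presents TGF-beta2, had a change of 0.31 (adjusted p = 0.0453, limma), a call that was lost in 10 of the 15 other settings that tested it, leaving out any shControl library or shMMP9 replicate 2 or 3 among them. TGFBR2 was the most strongly expressed receptor per kilobase of exon in either group, at 9.54 ± 0.828 scaled counts per kb in shMMP9 cells and 13.7 ± 0.285 in shControl cells. ACVR1 stood at 4.56 ± 0.0172 scaled counts per kb in shMMP9 cells and 2.56 ± 0.223 in shControl cells. Its libraries overlapped those of TGFBR1 in shMMP9 cells (4.28 ± 0.338) and those of BMPR1A in shControl cells (2.7 ± 0.17), so its place among these neighbours is not settled.

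Among 8 SMAD genes, 5 were lower and 2 higher, where 32.5% of all tested genes were lower and 25% higher. SMAD2, SMAD3, SMAD5, SMAD7 and SMAD9 were lower, SMAD1 and SMAD6 were higher, and SMAD4 did not pass. The median log2 change of the 8 genes was -0.30. SMAD2, SMAD4 and SMAD7 share a chromosome whose genes were mostly lower, as given below. SMAD3, the DNA-binding effector of TGF-beta and activin, lies at chr15:67063763-67195195 on the plus strand and had 97.4, 95.6 and 101 scaled counts in shMMP9 cells, against 206, 196 and 220 in shControl cells. The groups were far apart, and the log2 change was -1.07 (SE 0.0521, adjusted p = 1.34e-09, limma). SMAD3 was the most strongly expressed SMAD per kilobase of exon in both groups, at 10.7 ± 0.279 scaled counts per kb in shMMP9 cells and 22.7 ± 1.32 in shControl cells. SMAD7, a feedback inhibitor induced by TGF-beta, had 23.5, 24.2 and 25.4 scaled counts in shMMP9 cells, against 35.9, 44.3 and 43.8 in shControl cells (-0.73, adjusted p = 4.38e-06, limma). SMAD2, the other TGF-beta and activin effector, had 50.3, 59.4 and 52.9 in shMMP9 cells, against 71.3, 67.9 and 69.7 in shControl cells (-0.36, adjusted p = 0.000281, limma).

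The BMP effectors differed among themselves. SMAD1 had 6.38, 6.46 and 7.72 scaled counts in shMMP9 cells, against 3.56, 5.33 and 4.78 in shControl cells (0.51, adjusted p = 0.00619, limma), and SMAD5 had 65.3, 63.0 and 64.1 in shMMP9 cells, against 81.3, 73.0 and 74.7 in shControl cells (-0.25, adjusted p = 0.00166, limma). SMAD9 was weak, at 1.40 ± 0.174 in shMMP9 cells and 2.20 ± 0.208 in shControl cells (-0.41, adjusted p = 0.0125, limma), and did not pass without shMMP9 replicate 1 (-0.37, adjusted p = 0.0526). SMAD6, the inhibitory SMAD of the BMP arm, stood at 21.1 ± 2.17 in shMMP9 cells and 17.0 ± 1.97 in shControl cells (0.29, adjusted p = 0.0185, limma), a call lost without shMMP9 replicate 3 (0.22, adjusted p = 0.0955) or shControl replicate 3 (0.27, adjusted p = 0.0644).

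SMAD2, SMAD4 and SMAD7 lie on chromosome 18, where the median log2 change of 259 tested genes was -0.42 and 65.3% of genes were lower. Set against that median, SMAD7 stood at -0.31, SMAD2 at 0.06 and SMAD4, whose own change was 0.01, at 0.43. SMAD9 lies on chromosome 13, where the median of 321 tested genes was 0.19, and stood at -0.60 against it. Medians of the other autosomes ran from -0.13 to 0.04, so the chromosomes of SMAD3, SMAD1, SMAD5 and SMAD6 had no median shift of that size. Shifts of parts of a chromosome were not examined. The part of a chromosome-wide shift in the changes of SMAD2, SMAD4, SMAD7 and SMAD9 was not tested.

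**Figure D3:**
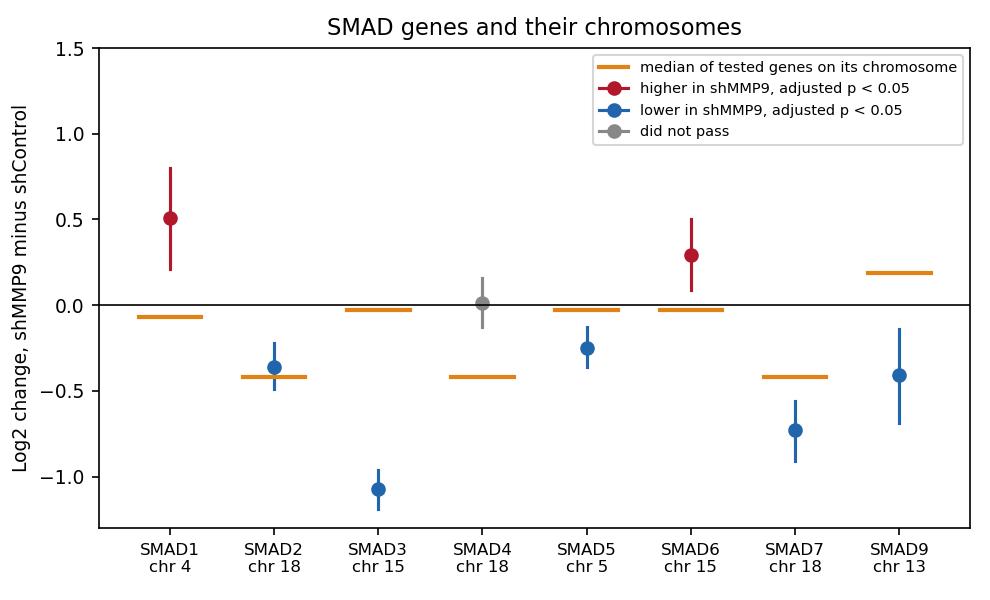
Log2 change of each SMAD gene, shMMP9 minus shControl, with its 95% confidence interval, and as orange bars the median log2 change of all tested genes on the same chromosome. SMAD2 (-0.36) lies at its chromosome's median of -0.42, SMAD7 (-0.73) lies below it, and SMAD3 (-1.07) lies far below a chromosome median near 0.

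Of the other intracellular and membrane regulators, BAMBI was higher and SMURF2 lower, and SMURF1, SKI and SKIL did not pass. By the same rule 25% of all tested genes were higher and 32.5% lower. BAMBI, a pseudoreceptor without a kinase domain that is induced by BMP and TGF-beta, lies at chr10:28677342-28682939 on the plus strand. It had 63.6, 64.5 and 73.2 scaled counts in shMMP9 cells, against 16.4, 19.5 and 14.6 in shControl cells (log2 change 1.94, SE 0.0925, adjusted p = 1.08e-09, limma). Its mean was 3.99 times as high in shMMP9 cells. SMURF2, a ubiquitin ligase that targets receptors and SMADs for degradation, lies at chr17:64542295-64662068 on the minus strand and had 54.3, 51.5 and 55.3 in shMMP9 cells, against 117, 111 and 114 in shControl cells (-1.07, SE 0.0507, adjusted p = 1.01e-09, limma). Neither gene overlapped between groups. Its relative SMURF1 had a change of -0.12 and the corepressors SKI and SKIL of -0.04 and 0.07; without shControl replicate 1, SMURF1 (-0.17, adjusted p = 0.0150) and SKI (-0.14, adjusted p = 0.0141) were called lower. Exons of SMURF1 overlap those of TRRAP on the opposite strand over 11.7% of their bases. Opposite-strand overlaps with listed genes also held for SMURF2 (CEP95, 2.4%), TGFB1 (HNRNPUL1, 6.6%) and ACVR2A (ORC4, 6.4%).

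All 4 ID genes were higher in shMMP9 cells, where 25% of all tested genes were higher. Their median log2 change was 1.45, beside -0.05 over all tested genes. That median rests in part on ID2, whose size depends on the pseudocount as given below. ID1, at chr20:31605283-31606515 on the plus strand, had 149, 151 and 161 scaled counts in shMMP9 cells, against 73.1, 71.5 and 63.3 in shControl cells (log2 change 1.14, SE 0.0601, adjusted p = 3.22e-09, limma). ID3, at chr1:23557918-23559794 on the minus strand, had 92.0, 87.7 and 96.4 in shMMP9 cells, against 56.6, 63.5 and 61.3 in shControl cells (0.60, SE 0.0579, adjusted p = 1.32e-06, limma). ID1 and ID3 are the abundant members of the family here, and each shMMP9 library lay above each shControl library. ID2, at chr2:8678845-8684453 on the plus strand, had 5.24, 4.8 and 4.69 in shMMP9 cells, against 0.784, 0.552 and 0.933 in shControl cells (1.75, SE 0.129, adjusted p = 9.01e-08, limma). ID4, at chr6:19837386-19840684 on the plus strand, had 5.47, 5.43 and 6.21 in shMMP9 cells, against 0.249, 0.520 and 0.709 in shControl cells (2.18, SE 0.141, adjusted p = 2.57e-08, limma). Neither gene overlapped between groups, and the shControl values of ID4 rest on 7, 16 and 19 estimated reads.

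Ratios of means, without the pseudocount, were 11.6 for ID4, 6.49 for ID2, 2.21 for ID1 and 1.52 for ID3. The low levels make the log2 changes of ID4 and ID2 depend on the pseudocount: they were 3.05 and 2.37 with 0.25 and 1.11 and 0.91 with 4. Per kilobase of exon the family ran in shMMP9 cells from ID1 (124 ± 5.41 scaled counts per kb) and ID3 (51.2 ± 2.42) to ID4 (2.43 ± 0.186) and ID2 (2.23 ± 0.131), whose libraries overlapped. In shControl cells the order was ID1 (56.2 ± 4.24), ID3 (33.6 ± 1.95), ID2 (0.343 ± 0.0871) and ID4 (0.210 ± 0.0986), and ID2 and ID4 again overlapped.

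**Figure D4:**
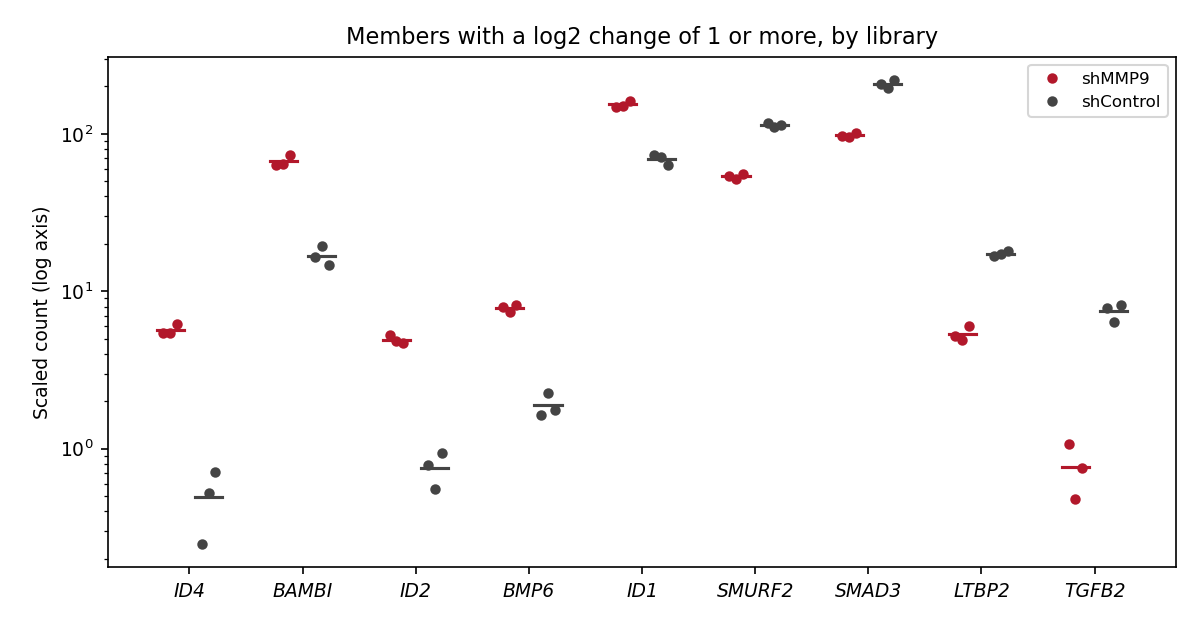
Scaled counts of the 9 members with a log2 change of at least 1 in either direction and adjusted p under 0.05, in each library, on a log axis; bars mark group means. ID4, BAMBI, ID2, BMP6 and ID1 lie higher in all 3 shMMP9 libraries and SMURF2, SMAD3, LTBP2 and TGFB2 lower, with no overlap between groups. The members shown were chosen from these same libraries, so the lack of overlap adds no further evidence. It held for 62.7% of all tested genes.

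Genes outside the 43 members but in the same pathway were counted from separate lists. Beside these counts, 25% of all tested genes were higher and 32.5% lower. Of 9 other ligands tested, 3 were higher and 3 lower (median log2 change -0.04). GDF15, a stress-induced ligand that signals through a receptor outside the family, stood at 20.8 ± 1.60 scaled counts in shMMP9 cells and 126 ± 9.23 in shControl cells (-2.54, adjusted p = 5.73e-12, limma). GDF6, a BMP of the eye and skeleton, was lower (adjusted p = 3.61e-08, limma), at 0.0734 ± 0.00609 in shMMP9 cells, which is an estimated 2 reads per library, and 3.14 ± 0.469 in shControl cells. GDF1 had a change of -1.34 (SE 0.273). Its shMMP9 libraries varied widely, at 2.99, 1.15 and 4.99 scaled counts, against 8.05, 7.15 and 10.4 in shControl libraries. BMP8B had a change of 1.18, and its value is uncertain because BMP8A is a near-identical neighbour. Of 7 other receptors and coreceptors, 5 were lower and the other 2 did not pass (median -0.36). RGMB, a BMP coreceptor, had 30.8 ± 2.87 scaled counts in shMMP9 cells and 84.7 ± 0.424 in shControl cells (-1.43, adjusted p = 7.79e-10, limma), and its receptor NEO1 (neogenin) had a change of -1.10. ENG (endoglin) had a change of -0.62 and BMPR1B, a BMP type I receptor, of -0.36. The call of BMPR1B was lost in 7 other settings, both other scalings (adjusted p = 0.0580 and 0.0593, limma) and the fits without shMMP9 replicate 1 (-0.27, adjusted p = 0.157), shMMP9 replicate 3 or shControl replicate 3 among them.

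Of 17 other extracellular modulators, 10 were lower and 3 higher (median -0.31), where 32.5% of all tested genes were lower and 25% higher. FSTL1, a secreted follistatin-like glycoprotein, had 9.17, 9.36 and 8.61 scaled counts in shMMP9 cells, against 138, 132 and 133 in shControl cells (-3.75, SE 0.0594, adjusted p = 6.86e-14, limma). BGN (biglycan), a matrix proteoglycan that binds TGF-beta, had a change of -2.56, and FSTL3, an activin antagonist, of -2.15. NOG (noggin), which blocks BMPs, stood at 1.39 ± 0.488 in shMMP9 cells and 4.67 ± 0.584 in shControl cells (-1.26, adjusted p = 1.32e-05, limma). FST and FSTL3, which antagonise the same ligands, thus went in opposite directions. Of 26 other intracellular components, 7 were higher and 11 lower (median -0.11). PMEPA1, a TGF-beta-induced inhibitor of SMAD2 and SMAD3, had a change of 1.19, the pocket protein RBL1 of 1.01 and the coactivator EP300 of 0.81. NEDD4L, a ubiquitin ligase for activated SMAD2 and SMAD3, lies on chromosome 18 and had a change of -0.95, or -0.53 against the median of that chromosome.

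Targets known to be induced by TGF-beta or activin went both ways. Of 20 such targets counted, 8 were higher and 11 lower (median -0.29), where 25% of all tested genes were higher and 32.5% lower. Leaving out the 3 that are members, 8 were higher and 9 lower of 17 (median -0.20). CTGF, a matricellular gene induced by TGF-beta, had 48.1, 47.7 and 46.4 scaled counts in shMMP9 cells, against 169, 170 and 174 in shControl cells (-1.83, SE 0.0466, adjusted p = 3.14e-12, limma). COL1A1 (collagen type I) had a change of -2.23 and TAGLN (transgelin) of -1.94. IGFBP3, also inducible by TGF-beta, went the other way, with 694, 678 and 705 in shMMP9 cells, against 142, 101 and 127 in shControl cells (2.49, SE 0.0908, adjusted p = 8.17e-11, limma).

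Of 17 BMP-induced targets tested, 10 were higher and 5 lower (median 0.60), where 25% of all tested genes were higher and 32.5% lower. Leaving out the 8 members, which include the ID genes, 4 were higher and 3 lower of 9 (median 0.19). DLX2, a homeobox gene, had 29.3, 29.3 and 33.8 scaled counts in shMMP9 cells, against 6.70, 8.64 and 7.62 in shControl cells (1.88, SE 0.0984, adjusted p = 2.92e-09, limma). HEY1, a transcriptional repressor that Notch also induces, had a change of 1.58 and ATOH8, a helix-loop-helix factor, of 0.75. NOG, itself a BMP target, was lower as given above. Genes of this list are induced by other signals as well, and no protein or SMAD phosphorylation was measured here.

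**Figure D5:**
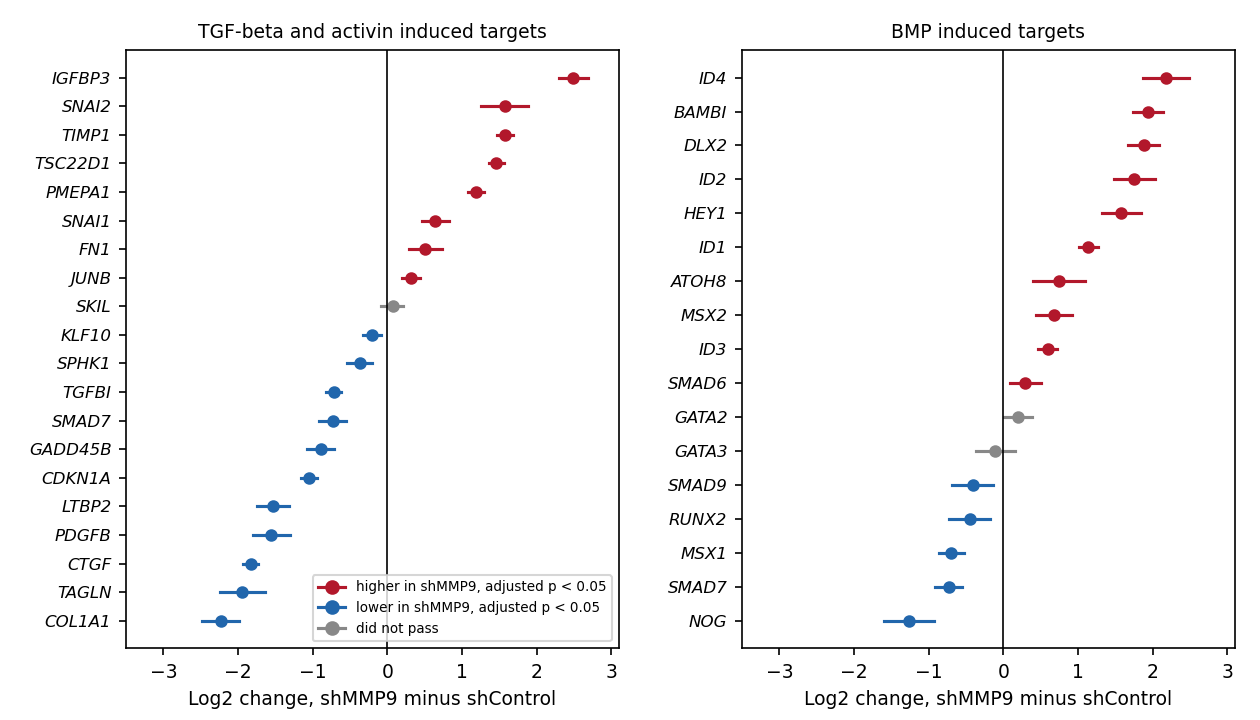
Log2 change, shMMP9 minus shControl, with 95% confidence intervals, of the tested genes on the list of TGF-beta and activin induced targets (left) and of BMP induced targets (right), members of the 43 included. In the left panel 8 genes are called higher and 11 lower, and in the right panel 10 higher and 5 lower. Of all tested genes, 25% were higher and 32.5% lower.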

How the data were processed

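Total RNA of A375 cells was sequenced in 6 libraries, 3 per group, with groups and replicate numbers taken from the labels. STAR 2.6.1d and Partek were used with hg38, per the submitters' processing notes. No counting method or strand setting is given in the sources used here. The single deposited table, named as counts, holds log2 values that the authors had scaled: on the linear scale each library had an upper quartile of 45.3 to 45.4. Whole multiples of the lowest step gave estimated reads, 64.5 to 67.8% of which were whole within 0.01, so tests of raw counts were not used. No gene of the table was below 1 estimated read in any library, and each reached 10 in some library.

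The deposited log2(scaled count + 1) values were fitted with limma 3.58.1 (R 4.3.3) with a variance trend, and p-values were adjusted by Benjamini-Hochberg over the 17194 tested genes, calling those under 0.05. The filter asked for 10 reads (at median depth) in 3 libraries and 15 reads in sum, and removed 1345 genes. The script was tested on simulated data. Exon lengths and positions came from GENCODE release 29 (GRCh38), matched for 99.9% of genes, and promoters from RefSeq. The 23 symbols turned into dates were left unnamed. Fractional reads mean that near-identical genes are uncertain.

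The members and lists were chosen with earlier results of these data known. Values per library are given for up to 5 members per role with the smallest adjusted p and for all with a log2 change of at least 1. From each other pathway and target list up to 4 passing genes with the largest change are named; lists of cell type markers are given by their sums. Some genes of these lists are not reported here and were left out of the counts. Alternatives were the replicate block, leaving out each library, other scalings, filters, pseudocounts and thresholds, no variance trend, limma-voom on estimated reads and subtraction of the chromosome median. Figures were drawn with matplotlib 3.10.9.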

Additional observations from a re-analysis of the deposited data

How the results depend on the processing

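Counts of members and of all genes stayed within 1.5 times the reported counts in all 16 settings. Over the runs that left out 1 library each, 15 to 19 members were higher and 11 to 15 lower, and 3759 to 4511 of all genes were higher and 4917 to 5714 lower. With median-of-ratios scaling 5013 genes were higher and 4875 lower, and with total-read scaling 4988 and 4898, against 4304 and 5584 as deposited, so the deposited scaling sets the balance of all calls; 20 members were higher and 12 lower under either. Replicate numbers gave no sign of pairing: deviations of same-numbered libraries correlated at 0.04, -0.13 and -0.03, and those of different-numbered libraries at -0.12 to 0.17. With the replicate block, 18 members were higher and 12 lower, and 4211 and 5486 of all genes; TGFBR3 alone among members lost its call (adjusted p = 0.0531). Of 41 members, 28 kept direction and call in every setting that tested them, and no fitted change of a called member reversed. Subtracting the median of chromosome 18 turned SMAD2 to 0.06, by construction. Low levels limit size: with limma-voom the changes were 3.60 for ID4, 2.72 for ID2, -3.28 for TGFB2 and 1.14 for TGFB3, with a pseudocount of 4 they were 1.11, 0.91, -1.26 and 0.32, and BMP6 (1.01), BMP7 (0.49), SMAD9 (-0.20) and TGFBR3 (0.20) also shrank by over 1.5 times with 4.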
